A study of Mus musculus with 4 samples.

Results

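The values described here are those of 30 genes of the tricarboxylic acid (TCA) cycle, the malate-aspartate shuttle and linked enzymes, chosen by symbol from the 22186 genes listed. All 30 were found, each in 1 row. RNA was sequenced from MC38, a mouse colon cancer cell line, stably transfected with the TetOn-CXCL14 plasmid, in which a tetracycline-responsive promoter drives CXCL14, a secreted chemokine, once doxycycline is present. All 4 libraries came from this construct-bearing line, 2 from control cultures given the PBS solvent and 2 from cultures with doxycycline at 1 µg/mL. Culture is given as 72 h in either case. The labels differ on the controls, which the treatment protocol gives PBS, a sample field calls untreated and the design text describes as collected before induction. If the design text holds, time in culture would differ between the groups too and could not be told apart from treatment. Both samples of a group are biological replicates by the series text, and whether the line is 1 clone is not given. No group received doxycycline without the construct or had the construct absent, so an effect of the drug itself and one of CXCL14 cannot be told apart. Levels are in TPM (a length-scaled share of each library's transcripts), so that genes can be compared within a library, and no read counts were used, so depth is unknown.

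The TCA cycle oxidises acetyl-CoA in the mitochondrial matrix and passes the electrons to NADH and FADH2. Its intermediates are also drawn off for synthesis: citrate leaves for the cytosol and yields lipid precursors, and oxaloacetate and 2-oxoglutarate exchange with aspartate and glutamate through transaminases. Because the inner membrane does not let NADH through, the malate-aspartate shuttle moves reducing equivalents. It uses a pair of malate dehydrogenases, a pair of aspartate transaminases and 2 kinds of carrier. NADP-dependent isocitrate dehydrogenases and NADP-dependent malic enzymes outside the cycle supply NADPH.

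Cxcl14, which checks the labels, stood at 27.3 and 29.2 TPM without and 385 and 391 TPM with doxycycline, and the species of the plasmid's insert is not given in the sources used here. All 8 markers of colon epithelium averaged below 1 TPM, with Cdh1, Cdx2 and Krt19 listed at 0 in all libraries, so defining markers of that tissue were at or near 0 in this colon-derived line. Markers of macrophages summed to 10.3 to 12.1 TPM in the controls and 7.48 to 8.89 TPM after doxycycline, with Laptm5, C1qa and C1qc at 0 throughout. Most of that sum was Cd68, which fell from 8.14 and 7.14 TPM to 4.77 and 5.12 TPM (log2 change -0.54, limma adjusted p = 0.0032), and Lyz2, at 2.65 to 3.78 TPM, which did not pass. All 4 T and NK cell and all 3 endothelial markers averaged below 1 TPM. Fibroblast markers summed to 3428 and 3620 TPM without and 523 and 493 TPM with doxycycline, nearly all of it Dcn and Pdgfra, while Lum, Fap and Col1a2 averaged below 1 TPM. Their part in the results below was not tested, and in bulk RNA fewer cells of a type and less RNA per cell cannot be told apart.

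Stretches of promoter are shown for 6 members that passed the test described below, to give for each of 4 searched motifs at least 1 member whose window holds its letters. RefSeq windows of 300 bases (build GRCm38.p6, 250 bases before the transcription start and 50 after) were matched by symbol for 28 of the 30 genes, all but Idh3a and Me2, as 37 windows. Each motif was searched on both strands: the C/EBP-ATF element TGATGNAA, bound by ATF4 with C/EBP partners, the E-box CACGTG, the antioxidant element TGACNNNGC, and the core GCGCATGC of the NRF1 element. Capitals mark the match, and each run reads 5′ to 3′ on the strand of the gene.
Got1, C/EBP-ATF element on the opposite strand (chr19:43524668-43524737, minus strand): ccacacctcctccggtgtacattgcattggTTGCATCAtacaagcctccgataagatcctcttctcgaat
Slc25a13, E-box (chr6:6217264-6217328, minus strand): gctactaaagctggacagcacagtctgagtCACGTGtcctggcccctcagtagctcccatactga
Slc25a1, E-box (chr16:17928410-17928469, minus strand): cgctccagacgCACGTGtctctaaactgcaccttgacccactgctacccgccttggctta
Pcx, E-box (chr19:4510222-4510281, plus strand): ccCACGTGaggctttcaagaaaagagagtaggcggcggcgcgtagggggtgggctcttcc
Idh3g, antioxidant element (chrX:73786938-73787007, minus strand): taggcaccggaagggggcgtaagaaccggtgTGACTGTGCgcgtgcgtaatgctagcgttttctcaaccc
Glud1, NRF1 core on the opposite strand (chr14:34310565-34310629, plus strand): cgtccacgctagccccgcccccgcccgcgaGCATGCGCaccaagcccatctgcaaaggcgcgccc

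The C/EBP-ATF letters were found in 1 of the 37 windows, that of Got1, 95 to 102 bases before the start, and in 3.97% of all 32851 windows. The E-box was in 6 windows of 4 members, Ogdh, Pcx, Slc25a1 and Slc25a13, and in 7.15% of all windows. Antioxidant letters were in 6 windows, those of Dlst, Idh3g, Mdh1, Me1, Mpc1 and Sucla2, against 12.4% of all windows. The NRF1 core was in 3 windows of Glud1 and Ogdh, against 2.71%. Windows of Ogdh overlap, so the same site can count more than once. By gene, the E-box was in 4 of 28 members and the NRF1 core in 2, against 8.09% and 3.05% of all genes. The C/EBP-ATF letters were in 1 and the antioxidant letters in 6, against 4.51% and 13.99%. Matches of different motifs did not overlap in any of these windows. A match describes letters only, since no binding was measured here.

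The comparison asked which of these genes differed between doxycycline-treated and control cultures. Of the 30 genes, 11 were higher and 10 lower after doxycycline at a limma adjusted p under 0.05, and 9 did not pass. Among all 11359 genes tested, 64.4% passed, 29% as higher and 35.4% as lower, so the 70.0% among the 30 lay near the background. Rises were fewer than falls over all genes (3295 and 4017), but that order turned when TPM was rescaled by median of ratios (3809 rises, 3552 falls) or by quantiles (3866 rises, 3374 falls). The median log2 fold change of the 30 was 0.03, beside -0.04 over all tested genes. The largest rise was of Got1, the cytosolic aspartate transaminase, at 2.53-fold, and the largest falls were of the dicarboxylate carrier Slc25a10 and of the NADP-dependent isocitrate dehydrogenases Idh1 and Idh2, at 4.44-fold, 2.72-fold and 2.22-fold. Those 4 were the members called with a log2 change of at least 1 in size, or 13.3% of the 30, against 11.2% of all tested genes. With at least 0.5 in size the order turned, at 26.7% of the 30 against 34.4% of all tested genes. In 24 of the 30 the libraries of the groups did not overlap, 13 higher and 11 lower, or 80.0%. Over all tested genes that share was 82.7%, with 37.7% higher and 45% lower. The summed level of the 30 was 4379 and 4182 TPM without and 4698 and 4687 TPM with doxycycline. Of the 30, D2hgdh, Glud1, Got2, Me1, Mpc1 and Suclg2 have a pseudogene at least 97% identical over 100 bases or more, so their single values are uncertain.

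**Figure D1:**
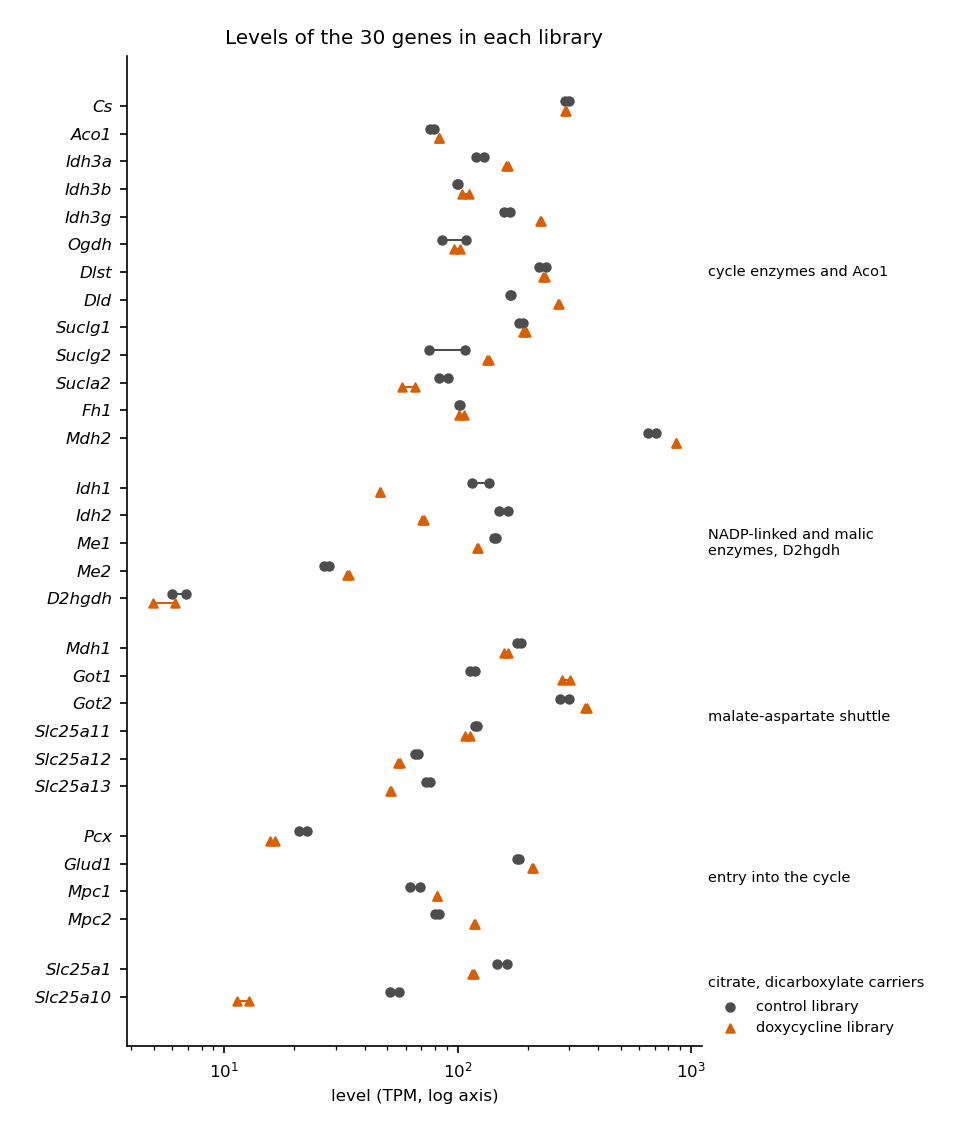
Level of each of the 30 genes in TPM on a log axis, 1 point per library, with circles for the 2 control and triangles for the 2 doxycycline libraries and a line joining the libraries of a group. Mdh2 stood highest, at 657 to 862 TPM, and D2hgdh lowest, at 4.95 to 6.87 TPM. The groups lie far apart for Got1, Idh1, Idh2 and Slc25a10 and overlap for Cs, Ogdh, Dlst, Suclg1, Fh1 and D2hgdh.

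Of the 12 members that are steps of the cycle itself, 5 rose, 1 fell and 6 did not pass, so that 50% were called against 64.4% of all tested genes. They had a median log2 fold change of 0.08 and a range from -0.49 to 0.68. Their summed level was 2398 and 2265 TPM without and 2761 and 2737 TPM with doxycycline. Cs, citrate synthase of the entry step, was at 302 and 290.2 TPM without and 292 and 289 TPM with doxycycline, with overlapping groups (log2 fold change -0.03, 95% interval -0.16 to 0.10).

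NAD-dependent isocitrate dehydrogenase is built of the catalytic subunit IDH3A and the further subunits IDH3B and IDH3G. Idh3a rose from 119.9 and 130.3 TPM to 161 and 164 TPM (log2 change 0.38, SE 0.06, limma adjusted p = 0.00067). Idh3g rose from 167 and 158 TPM to 225 and 228 TPM (log2 change 0.48, SE 0.06, limma adjusted p = 1.0e-04). In both genes each doxycycline library lay above each control library. Idh3b stood at 99.5 and 100.3 TPM without and 112 and 105 TPM with doxycycline, also without overlap, but did not pass (adjusted p = 0.13). Its exons share a few bases with Nop56 on the other strand in the GENCODE M21 annotation.

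Of the 3 components of the 2-oxoglutarate dehydrogenase complex, 1 passed. Dld encodes the dihydrolipoamide dehydrogenase that this complex shares with pyruvate dehydrogenase, branched-chain ketoacid dehydrogenase and the glycine cleavage system. Dld was at 168 and 169.7 TPM without and 271 and 271 TPM with doxycycline, a 1.60-fold rise (log2 change 0.68, SE 0.06, limma adjusted p = 7.1e-06). Its libraries differed less within a group than those of most members. Dlst, the succinyltransferase of the complex, stood at 239.9 and 222 TPM without and 233 and 237 TPM with doxycycline, with overlapping groups (95% interval of the log2 change -0.12 to 0.16). Ogdh, the dehydrogenase component, stood at 109 and 85.4 TPM without and 103 and 96.1 TPM with doxycycline, both doxycycline libraries lying between the controls. Its interval, -0.19 to 0.27, was wider than those of its partners. The log2 fold change of Ogdh was 0.22 without control replicate 1 and -0.14 without control replicate 2, so its sign depended on which control was kept.

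Succinyl-CoA synthetase pairs a shared subunit, encoded by Suclg1, with a subunit that sets the nucleotide used, GTP for Suclg2 and ATP for Sucla2. Suclg1 stood at 191 and 184 TPM without and 197 and 191 TPM with doxycycline, with overlapping groups. Sucla2 fell from 83.7 and 90.8 TPM to 65.6 and 57.9 TPM (log2 change -0.49, SE 0.08, limma adjusted p = 4.6e-04). Suclg2 rose, with 108 and 75.2 TPM without and 136 and 134 TPM with doxycycline (log2 change 0.58, SE 0.13, limma adjusted p = 0.0044). The 2 nucleotide-specific subunits changed in opposite directions, and the groups did not overlap for either. The control libraries of Suclg2 differed 1.43-fold, the widest spread of any member within a group. Without control replicate 2 the change was 0.32 and without control replicate 1 it was 0.84, and with no filter or a robust variance model the call was lost (adjusted p = 0.054 in each).

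Fumarase and the matrix malate dehydrogenase close the cycle. Fh1, which encodes fumarase of both compartments, stood at 101 and 103 TPM without and 107 and 101 TPM with doxycycline, with overlapping groups (95% interval -0.11 to 0.17). Mdh2, the most abundant of the 30, rose from 708 and 657 TPM to 859.8 and 862 TPM (log2 change 0.34, SE 0.07, limma adjusted p = 0.0018). Aco1, a cytosolic aconitase that doubles as an iron-responsive RNA-binding protein, stood at 79.2 and 76.5 TPM without and 83.0 and 82.9 TPM with doxycycline and did not pass (adjusted p = 0.22). Median-of-ratios scaling carried Aco1 and Idh3b past the threshold as higher (adjusted p = 0.043 and 0.025).

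**Figure D2:**
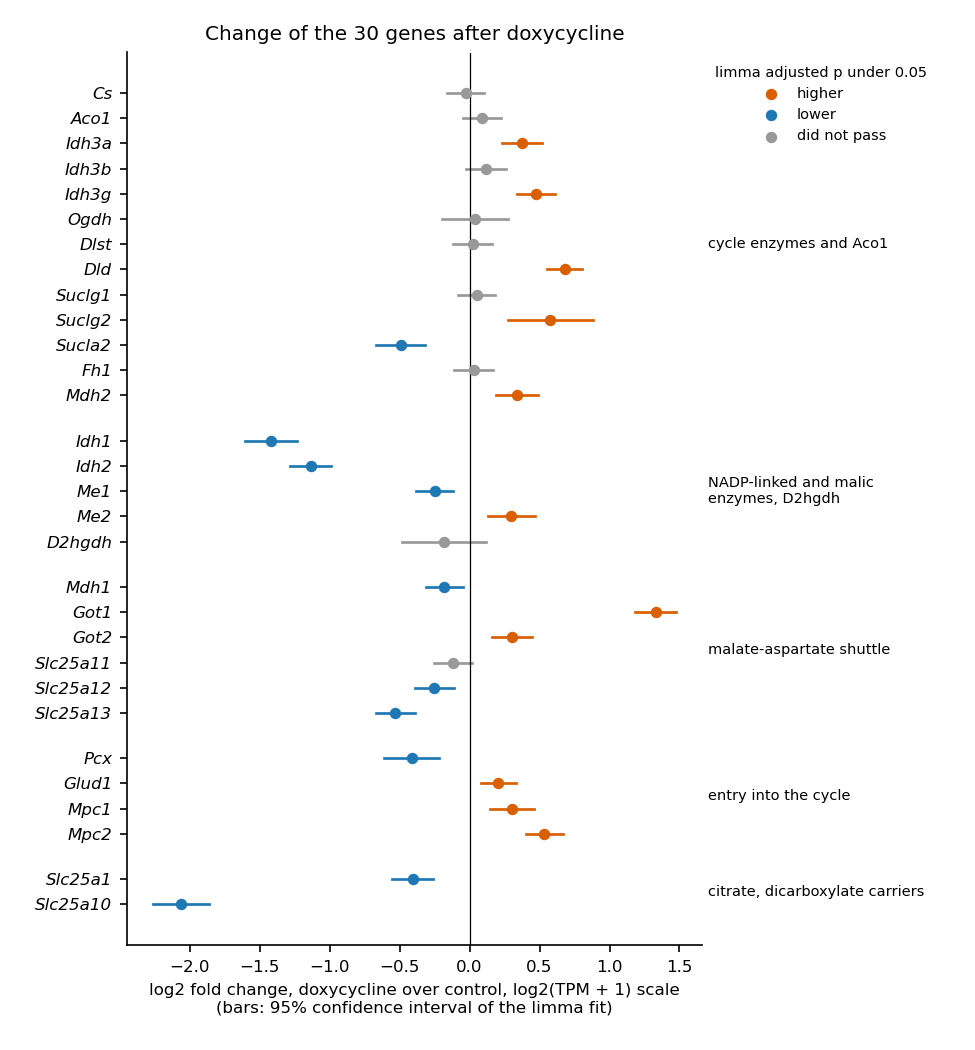
Log2 fold change of each gene, doxycycline over control, on the log2(TPM + 1) scale, with bars for the 95% confidence interval of the limma fit and colours for genes that passed as higher, passed as lower or did not pass. The 12 cycle genes lie between -0.49 and 0.68, whereas Got1 stands at 1.33 and Idh1, Idh2 and Slc25a10 at -1.42, -1.14 and -2.06.

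The NADP-dependent isocitrate dehydrogenases fell in both compartments. Idh1, in the cytosol and peroxisomes, fell from 116 and 137 TPM to 46.4 and 46.5 TPM (log2 change -1.42, SE 0.08, limma adjusted p = 8.1e-07). Idh2, its mitochondrial counterpart, fell from 165 and 151 TPM to 71.8 and 70.6 TPM (log2 change -1.14, SE 0.06, limma adjusted p = 7.2e-07). In the controls Idh2 was above both Idh3a and Idh3b in each library, and after doxycycline it was below both in each library. Idh1 and Idh2 run between isocitrate and 2-oxoglutarate, as does the NAD-dependent enzyme whose subunits Idh3a and Idh3g rose.

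Malic enzymes turn malate into pyruvate. Me1, the cytosolic NADP-dependent form, fell from 143 and 147 TPM to 122 and 121 TPM (log2 change -0.25, SE 0.06, limma adjusted p = 0.0041). Me2, a mitochondrial form, rose from 26.7 and 28.1 TPM to 34.2 and 33.6 TPM (log2 change 0.30, SE 0.07, limma adjusted p = 0.0060). Both changes were small but exceeded the gaps between libraries of a group. D2hgdh, the mitochondrial enzyme that turns D-2-hydroxyglutarate into 2-oxoglutarate, was the lowest member, at 6.87 and 5.99 TPM without and 6.15 and 4.95 TPM with doxycycline, with overlapping groups (adjusted p = 0.25).

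Members of the malate-aspartate shuttle split. Mdh2, counted above with the cycle, also serves the shuttle and rose. Of its other 6 genes, 2 were higher, the transaminases, 3 were lower, and 1 did not pass. That is 83.3% called, against 64.4% of all tested genes, of which 29% were higher and 35.4% lower. Got1 stood at 118 and 113 TPM without and 281 and 304 TPM with doxycycline (log2 change 1.33, SE 0.06, limma adjusted p = 2.9e-07). Its promoter window holds the C/EBP-ATF letters shown above, as do 3.97% of all windows, and a link between these letters and the rise was not tested. Got2, the mitochondrial transaminase, rose from 300.3 and 276 TPM to 351 and 359 TPM (log2 change 0.30, SE 0.06, limma adjusted p = 0.0026).

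Both aspartate-glutamate carriers and the cytosolic dehydrogenase of the shuttle fell. Slc25a13 and Slc25a12 encode these carriers, citrin and aralar, which bring aspartate out of the matrix. Slc25a13 fell from 76.2 and 73.3 TPM to 51.8 and 51.2 TPM (log2 change -0.53, SE 0.06, limma adjusted p = 7.4e-05). Slc25a12 fell from 67.5 and 65.9 TPM to 56.5 and 55.3 TPM (log2 change -0.25, SE 0.06, limma adjusted p = 0.0063). Each gene had both doxycycline libraries below both controls. Mdh1, the cytosolic malate dehydrogenase, passed narrowly as lower, with 187 and 181 TPM without and 165 and 159 TPM with doxycycline (log2 change -0.18, SE 0.06, limma adjusted p = 0.024). That call did not hold in 5 of 15 other settings, which included leaving out control replicate 1, DOX replicate 1 or DOX replicate 2 (adjusted p = 0.071, 0.059 and 0.18). Median-of-ratios scaling brought it to -0.11 (adjusted p = 0.12). The full range of adjusted p over alternatives was 0.0063 to 0.18. Slc25a11, the malate-oxoglutarate carrier, stood at 121 and 119 TPM without and 114 and 107 TPM with doxycycline and did not pass (adjusted p = 0.11), although quantile normalization brought it past (adjusted p = 0.028).

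Of the 4 genes that feed pyruvate and glutamate carbon into the cycle, 3 were called higher and 1 lower. Over all tested genes 29% were called higher and 35.4% lower. Mpc1 and Mpc2 form the mitochondrial pyruvate carrier. Mpc2 rose from 83.0 and 80.0 TPM to 118 and 119 TPM (log2 change 0.53, SE 0.06, limma adjusted p = 4.8e-05). Mpc1 rose from 69.4 and 62.5 TPM to 81.4 and 81.9 TPM (log2 change 0.31, SE 0.07, limma adjusted p = 0.0039). Glud1, glutamate dehydrogenase, rose from 183 and 180.3 TPM to 211 and 208 TPM (log2 change 0.21, SE 0.06, limma adjusted p = 0.010), a call lost under quantile normalization and without DOX replicate 1 or 2 (adjusted p = 0.056, 0.075 and 0.0502). Pcx, pyruvate carboxylase, which makes oxaloacetate from pyruvate, fell from 20.9 and 22.7 TPM to 15.7 and 16.4 TPM (log2 change -0.41, SE 0.09, limma adjusted p = 0.0024). Its groups did not overlap, it was the lowest member but for D2hgdh on average over the libraries, and quantile normalization brought the change to -0.26.

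The dicarboxylate and the citrate carrier of the inner membrane both fell. Slc25a10, the dicarboxylate carrier, which exchanges malate and succinate for phosphate and sulphur-containing anions, fell from 55.9 and 51.4 TPM to 12.8 and 11.3 TPM (log2 change -2.06, SE 0.09, limma adjusted p = 1.5e-07). Slc25a1, the citrate carrier that exports citrate to the cytosol, fell from 162 and 147 TPM to 115 and 117 TPM (log2 change -0.41, SE 0.07, limma adjusted p = 5.1e-04). Acly, which splits the exported citrate, stood at 322 and 322 TPM without and 321 and 315 TPM with doxycycline, with a log2 fold change of -0.02. Exons of Slc25a10 overlap those of a gene on the other strand in GENCODE M21, and whether counting used the strand is not given in the sources used here.

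Ratios within a library set paired genes against each other. They do not depend on a scale factor per library. The uncertainty from pseudogenes given above for Got2, Me1, Mpc1 and Suclg2 applies to their ratios too. The smallest p that an exact two-sided permutation test allows with 2 libraries a group is 0.33, so the 9 ratios are given as a description. Got1 stood at 0.394 and 0.411 times the level of Got2 without and 0.801 and 0.847 times with doxycycline. Mdh1 stood at 0.263 and 0.275 times Mdh2 without and 0.192 and 0.184 times with doxycycline. Between the cytosolic and mitochondrial members of the shuttle's enzyme pairs, the transaminase ratio was higher and the dehydrogenase ratio lower after doxycycline, with no overlap between groups in either.

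Me1 to Me2 was 5.38 and 5.22 without and 3.59 and 3.61 with doxycycline, with Me1 the higher in every library. Suclg2 to Sucla2 was 1.29 and 0.828 in the controls, above and below parity, and 2.07 and 2.31 after doxycycline. Slc25a12 to Slc25a13 was 0.886 and 0.899 without and 1.09 and 1.08 with doxycycline, so the order of the carriers differed between groups. Idh1 to Idh2 was 0.703 and 0.906 without and 0.647 and 0.658 with doxycycline, a log2 difference of -0.29 that was -0.11 without control replicate 2 and -0.47 without control replicate 1. Mpc1 to Mpc2 was 0.836 and 0.781 without and 0.690 and 0.688 with doxycycline. Idh3b to Idh3a was 0.830 and 0.770 without and 0.697 and 0.638 with doxycycline. Among the 9 ratios, Idh3g to Idh3a was the only one whose groups overlapped, at 1.40 and 1.21 without and 1.40 and 1.39 with doxycycline. How often the groups overlap for ratios of other gene pairs was not tested. For single genes, 82.7% of all tested genes had groups that did not overlap.

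**Figure D3:**
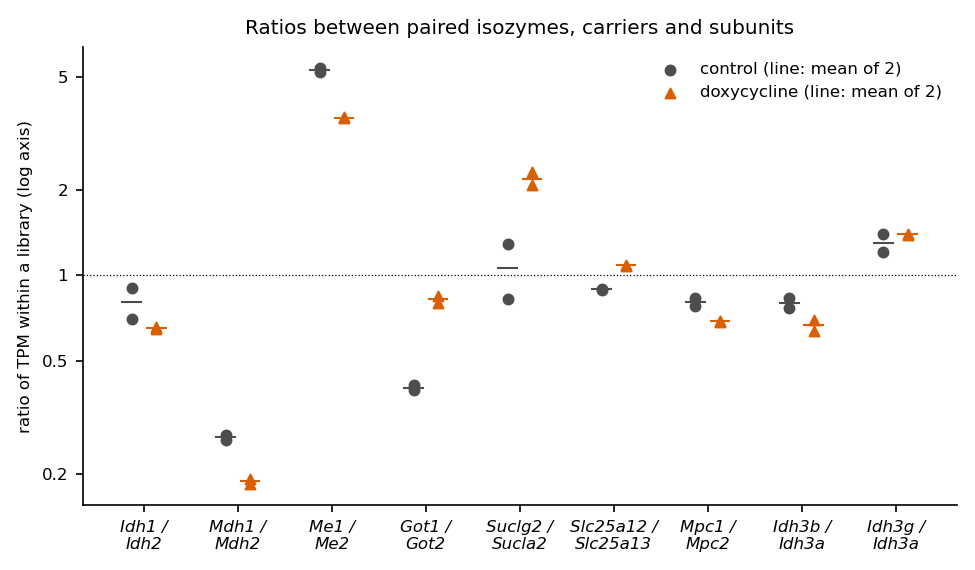
Ratio of TPM between paired genes within each library, on a log axis, with circles for control and triangles for doxycycline libraries and a line at the mean of 2. Got1 to Got2 lies at 0.394 and 0.411 without and 0.801 and 0.847 with doxycycline, and the groups overlap for Idh3g to Idh3a.

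Cycle steps and pyruvate dehydrogenase genes outside the 30 were read from a second list of 17, of which 15 were tested. Of these, 5 were higher and 4 lower, with a median log2 fold change of 0.08. That is 60% called, against 64.4% of all tested genes. The count of higher genes was 2 without DOX replicate 2 and 3 with no filter. Succinate dehydrogenase varied among its subunits: Sdhb and Sdha were higher (log2 fold change 0.24 and 0.16, limma adjusted p = 0.0056 and 0.036), while Sdhc and Sdhd did not pass (-0.05 and -0.13, adjusted p = 0.51 and 0.082). Pdha1, a catalytic subunit gene of pyruvate dehydrogenase, rose from 107 and 110.5 TPM to 138 and 140.1 TPM. Its inhibitory kinases Pdk1 and Pdk2 fell, from 46.0 and 48.3 TPM to 22.3 and 23.9 TPM and from 18.4 and 17.4 TPM to 8.30 and 8.91 TPM. The activating phosphatase gene Pdp1 fell as well, from 7.25 and 8.16 TPM to 4.66 and 4.33 TPM.

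Among 22 listed genes of entry and exit of cycle intermediates, 17 were tested, 6 were higher and 5 lower (median 0.07). Called were 64.7% of the 17, against 64.4% of all tested genes. Gpt2, the mitochondrial alanine transaminase, rose from 81.6 and 72.0 TPM to 237 and 234 TPM (log2 fold change 1.61). Pck2, the mitochondrial phosphoenolpyruvate carboxykinase, rose from 61.7 and 52.9 TPM to 150.3 and 150.7 TPM (log2 fold change 1.38). Glul, glutamine synthetase, fell from 82.2 and 82.2 TPM to 42.3 and 42.6 TPM, and Ldha, a lactate dehydrogenase subunit, from 2235 and 2005 TPM to 1180 and 1193 TPM. Of 15 further mitochondrial carriers and glycerol phosphate shuttle genes, 11 were tested, 4 were higher and 1 lower (median 0.09). Called were 45.5% of the 11, against the same 64.4%. Slc25a39, a carrier needed for mitochondrial glutathione, and Slc25a5, an ADP/ATP carrier, were higher (log2 fold change 0.63 and 0.61), as was the glycine carrier Slc25a38 (0.45). Gpd2, the mitochondrial dehydrogenase of the glycerol phosphate shuttle, the other route for cytosolic reducing equivalents, fell from 59.2 and 58.4 TPM to 42.0 and 43.3 TPM (-0.45). Gpd1, the cytosolic dehydrogenase of that shuttle, was at 0.64 to 0.90 TPM and was not tested.

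**Figure D4:**
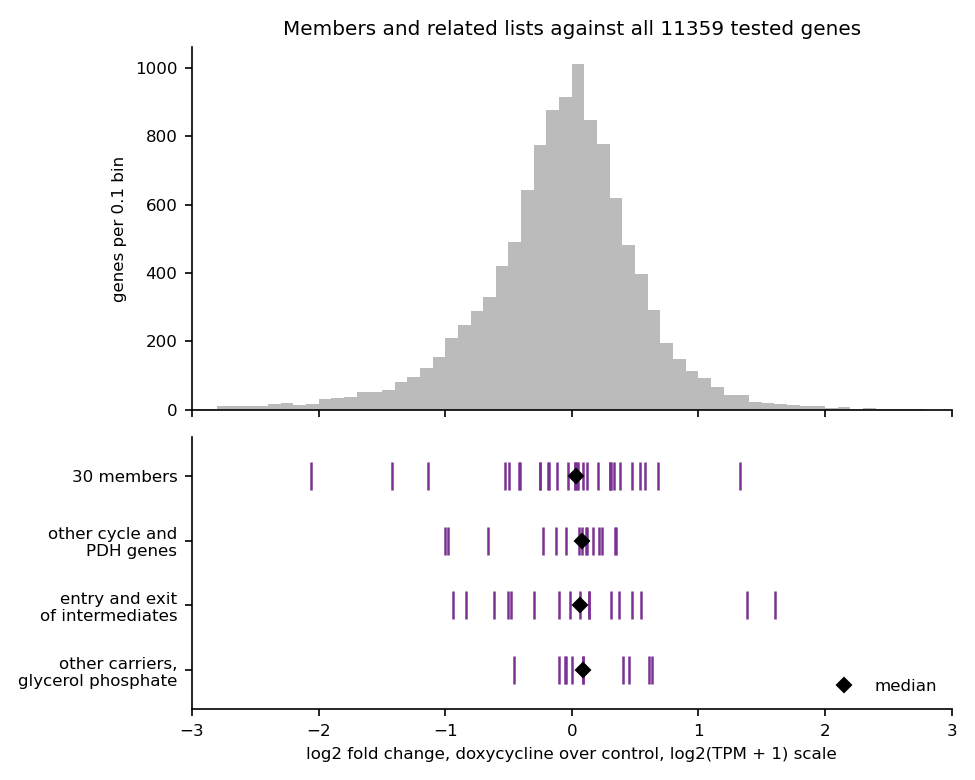
Upper panel, number of genes per bin of 0.1 in log2 fold change (doxycycline over control) over all 11359 tested genes, with 56 genes beyond the axis range; lower panel, 1 tick per tested gene of the 30 members and of 3 related lists, with diamonds at the medians. The medians, 0.03 for the 30 and 0.07 to 0.09 for the others, lie near that of all genes, and the ticks spread to both sides.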

How the data were processed

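RNA was measured in 4 libraries, grouped by sample title, 2 per group. The authors deposited one table in TPM and one in FPKM, keyed by gene symbol. The submitters' processing notes name the build mm39; for aligner, quantifier and annotation, nothing is given in the sources used here. Among genes low in 2 libraries, at most 2.57% shared the most common ratio of FPKM, so whole reads could not be recovered.

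Genes averaging 1 TPM or more were tested on log2(TPM + 1) with limma 3.58.1 in R 4.3.3 (eBayes with a mean-variance trend, no covariate), Benjamini-Hochberg over all 11359 tested genes. Fold changes in log2 are on that scale, and understate low genes, while folds are ratios of mean TPM. With n = 2, p-values rest on spread shared across genes (prior degrees of freedom 6.98, residual 2).

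The members and lists were chosen with earlier results of these data known. All 30 members are named, with Cxcl14, Sdha to Sdhd and up to 4 passing genes with the largest change in each related list. Acly was named after its values were seen, and 1 gene that the rule names is not reported here. Other settings were 2 pseudocounts, 2 filters, FPKM, 3 scalings, 2 variance models, a replicate block and each library left out, which gives the 1 library left in that group the spread seen in the other group.

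Replicate numbers were not taken as pairing: across genes, same-numbered libraries' deviations correlated at -0.0053. With blastn 2.17.0 in GENCODE M21, 30 members were searched against 13607 pseudogene transcripts. Exons of 5 members overlap another gene there: Got2, Idh3b, Me1, Mpc1 and Slc25a10. That annotation is of an earlier build than mm39. Python 3.11.15 with pandas 2.3.3 searched promoters and drew figures.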

Additional observations from a re-analysis of the deposited data

How the results depend on the processing

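Of the 21 members called, 18 kept their call in all 15 alternatives, and Suclg2, Mdh1 and Glud1 lost it in at least 1; 0 of the 21 changed sign. Across all alternatives 10 to 13 members were called higher and 9 to 11 lower, and with each library left out in turn 10 to 12 and 9 to 10. Members that did not pass changed sign in some settings, and the cause was not tested: Cs to 0.042 under median-of-ratios scaling, and under quantile normalization Ogdh to -0.0086, Dlst to -0.050, Suclg1 to -0.020, Fh1 to -0.026 and D2hgdh to 0.11. With a library left out, the log2 changes ran from -0.055 to 0.0011 for Cs, -0.14 to 0.22 for Ogdh, -0.032 to 0.076 for Dlst and -0.0082 to 0.066 for Fh1. Quantile normalization moved the log2 ratio change of Mdh1 to Mdh2 from -0.52 to -0.57 and of Me1 to Me2 from -0.56 to -0.72, and the lower genes among the further carriers from 1 to 2. It also moved Glud1 to 0.13. Among the other cycle genes, those higher numbered 3 with no filter and 2 to 4 with a library left out. With the replicate block 11 members were higher and 10 lower, and it changed no call of a member. Counts of reads were not used, so what depth limits cannot be stated.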
